A study of Mus musculus with 7 samples.

Results

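The level of 9 mature miRNAs known from blood cells and blood vessels was followed in mouse testes before and after 12 days of culture. The 9 miRNAs were taken by name from the 331 listed miRNAs and come from 5 genomic loci. The erythroid members are mmu-miR-451a, both arms of miR-144 (mmu-miR-144-5p and mmu-miR-144-3p), mmu-miR-486a-5p and mmu-miR-486b-5p. The leukocyte members are mmu-miR-142a-5p and mmu-miR-150-5p, and the endothelial members are both arms of miR-126a, mmu-miR-126a-5p and mmu-miR-126a-3p. The species prefix is left out below.

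Testes of CD1 mice, an outbred strain, gave 7 small RNA libraries, with 1 library for each of 7 conditions. T6 and T10 were testes of 6.5 and 10.5 dpp (days post-partum) mice without culture, labelled as 6 and 10 days old, and TAD was the testis of an adult of 2 months. T6-12K and T6-12A were 6.5 dpp testes, and T10-12K and T10-12A 10.5 dpp testes, kept for 12 days on agarose at a gas-liquid interphase, at 34ºC in air with 5% CO2. The medium held KSR, a serum replacement, in the libraries ending in K, and AlbuMAX I, a lipid-rich bovine serum albumin, in those ending in A. The tunica albuginea, the outer sheath of the testis, was taken off before culture, and the labels name no genetic change. An explant was a whole testis at 6.5 dpp and part of a testis at 10.5 dpp. The study's methods describe RNA isolation from a pair of explants for its gene expression assays. Whether each sequenced library pools explants or animals is not stated. With 1 library per condition, no difference was tested against variation between animals or explants. All intervals below are 95% intervals that cover counting error only.

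miR-144 and miR-451a are transcribed together in maturing red blood cells. miR-451a is cut by AGO2 without Dicer and stays abundant in red cells after they lose their nucleus. miR-486-5p is abundant in red cells as well, but also in striated muscle, and its gene lies in Ank1, which encodes the ankyrin of the red cell membrane. miR-142 is made in all blood cell lineages and is used as a marker of leukocytes. miR-150 is typical of mature lymphocytes, and miR-126, encoded within Egfl7, is the classical miRNA of endothelial cells, which line the vessels. In whole tissue, fewer cells of a type and less RNA per cell cannot be told apart.

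The mature sequences are shown so that the members and their seeds can be told apart, and RefSeq (GRCm38.p6) held them for 5 of the 9 members. The seed, bases 2 to 8 from the 5′ end, which pairs with target mRNAs, is in capitals.
miR-451a: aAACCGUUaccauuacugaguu
miR-144-5p: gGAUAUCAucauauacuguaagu
miR-144-3p: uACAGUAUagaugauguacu
miR-142a-5p: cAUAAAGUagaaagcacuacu
miR-126a-3p: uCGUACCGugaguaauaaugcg
The 5 sequences carried 5 different seeds, so none of these miRNAs shares its seed with another. The mature forms of miR-486a-5p, miR-486b-5p, miR-150-5p and miR-126a-5p are named here without a sequence.

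The miR-144 and miR-451a hairpins are shown because their miRNAs were above 0 in the uncultured libraries and at or near 0 in the same cultures. The Mir144 hairpin lies on chromosome 11 of GRCm38 from 78073005 to 78073070 on the plus strand, and the Mir451a hairpin follows after 99 bases, from 78073170 to 78073241. Neither lies within a protein-coding gene in GENCODE. The capitals mark the mature miRNAs, which are both arms in Mir144, and in Mir451a a single stretch that runs on into the loop.
Mir144: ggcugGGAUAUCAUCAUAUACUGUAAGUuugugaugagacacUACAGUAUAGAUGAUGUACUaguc
Mir451a: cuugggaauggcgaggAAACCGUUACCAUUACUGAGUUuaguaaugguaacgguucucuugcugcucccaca
The other loci lie within longer transcripts or alone. The miR-486a hairpin (chromosome 8, 23142555 to 23142682, plus strand) lies in an intron of Ank1 on the same strand. The miR-142a hairpin (chromosome 11, 87756864 to 87756927) lies in an intron of the non-coding Mir142hg. The miR-126a hairpin (chromosome 2, 26591357 to 26591429) overlaps an exon of an Egfl7 transcript. The miR-150 hairpin (chromosome 7, 45121757 to 45121821) overlaps no other annotated gene.

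The deposited values are reads divided by 1 factor per library. Reads were estimated by dividing them by the worth of 1 read, and levels are given as CPM, reads on a miRNA per 1000000 reads on all listed miRNAs. These totals ranged from 7075528 reads in T10-12K to 13397410 in T10 among the prepuberal and cultured libraries, and came to 1628770 in TAD. Values at 0 may stand for fewer than 5 reads, the smallest number listed in any library, which is worth between 0.373 and 0.707 CPM outside TAD and 3.07 CPM in TAD. The most abundant miRNA, miR-10b-5p, took between 31.2% and 54.4% of the reads and so weighs on every CPM. So does miR-143-3p, with 103729 CPM in T6, 212659 in T6-12K and 258115 in TAD, which the scaling without miR-10b-5p leaves in. As a check of the tissue, miR-202-5p, a gonad miRNA, was listed in all 7 libraries with 86.2 to 228 CPM. Its other arm, miR-202-3p, had 6.57 to 31.9 CPM. The spermatocyte and spermatid list (6 of 6 listed) summed to 74.0 CPM in T6, 164 in T10, 614 to 1972 in the cultures and 25799 in TAD, most of it miR-34c-5p, followed by miR-449a-5p and miR-34b-5p. No miRNA of the liver list, miR-122-5p and miR-122-3p, was analysed here.

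The erythroid pair from chromosome 11 was above 0 in every uncultured testis and at or near 0 in every culture. miR-451a had 120 reads in T6, 92 in T10 and 6 in TAD, and was listed at 0 in all 4 cultures. In CPM its level was 8.98 in T6, 6.87 in T10 and 3.68 in TAD. All 4 cultures lay below all 3 uncultured libraries, as they did for miR-423-5p and miR-16-5p. The share of all miRNAs that separate this way was not computed. Any value listed in TAD is at least 3.07 CPM, above the worth of 5 reads in the cultures, which partly sets this gap for miR-451a. Had its level stayed that of the starting testis, about 89.2 and 96.9 reads would have been counted in the 6.5 dpp cultures with KSR and AlbuMAX I, and 48.6 and 58.0 reads in the 10.5 dpp ones. With 5 reads in place of 0, miR-451a was at least 17.8-fold lower in T6-12K and at least 19.4-fold lower in T6-12A than in T6. It was at least 9.72-fold lower in T10-12K and at least 11.6-fold lower in T10-12A than in T10.

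miR-144-5p, the arm of the neighbouring hairpin with more reads, had 89 reads in T6, 145 in T10 and 7 in TAD. It was listed at 0 in T6-12K, T6-12A and T10-12K, and 5 reads were left in T10-12A. Its level was 6.66 CPM in T6, 10.8 in T10, 4.30 in TAD and 0.592 in T10-12A. It was at least 13.2-fold, 14.4-fold and 15.3-fold lower in T6-12K, T6-12A and T10-12K. In T10-12A the log2 ratio to T10 was -4.19 (from -5.84 to -2.94), and no other of the 331 miRNAs compared there had a smaller value. Its rank is not settled by this, since the 16 miRNAs listed at 0 in T10-12A have bounds in place of ratios and may lie lower.

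miR-144-3p, the other arm, had 17 reads in T6, 91 in T10 and 5 in TAD, and was listed at 0 in all 4 cultures. At 10.5 dpp it was at least 9.61-fold lower in T10-12K and at least 11.5-fold lower in T10-12A. At 6.5 dpp the few reads of T6 allow a bound of 2.53-fold in T6-12K and 2.75-fold in T6-12A. With 5 reads in the culture, the counting interval of the T6-12K log2 ratio reached from -3.13 to 0.16, so a lower level of this arm could not be told from counting error at 6.5 dpp. The bounds of miR-451a and miR-144-5p in the 4 cultures stayed past 2-fold under all 6 scalings computed.

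Few of the listed miRNAs were at 0 in all cultures. The list was filtered beforehand, since the paper discarded miRNAs with fewer than 50 reads. In deposited values miR-451a and miR-144-5p passed 50 only in T6 and T10, and miR-144-3p only in T10 (58.97). These 3 may thus be listed only through uncultured libraries. The counts below describe the filtered list and are no test of absence from culture. Of the 331 miRNAs, 261 were above 0 in T6, T10 and TAD, and of these miR-451a and miR-144-3p were the 2 listed at 0 in all 4 cultures. Leaving out T6-12K gave the same 2 miRNAs. Without the condition on TAD, 4 more joined them, and all 4 were listed at 0 in TAD too: miR-467a-5p, miR-370-3p, miR-3099-3p and miR-466b-3p. Of the 79 miRNAs with 50 to 200 reads in T6, 8 were listed at 0 in at least 3 cultures, miR-451a and miR-144-5p among them.

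**Figure D1:**
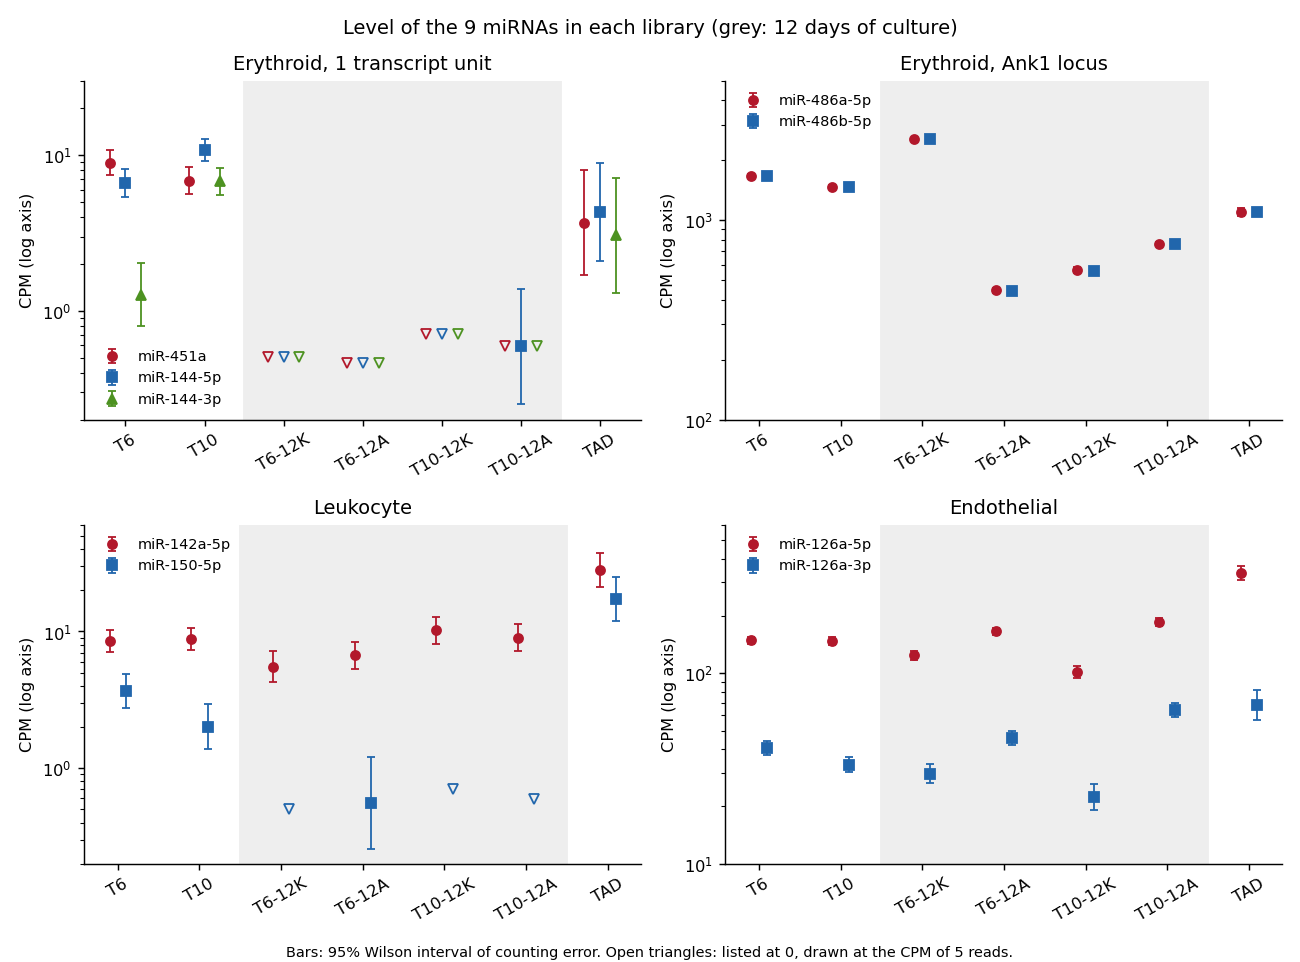
Level of each of the 9 miRNAs in CPM on log axes, by library, in 4 panels, with bars for the 95% Wilson interval of counting error and open triangles at the worth of 5 reads where a miRNA was listed at 0. miR-451a and the miR-144 arms lie at 0 or at 0.592 CPM in the 4 cultures (grey), miR-486a-5p is highest in T6-12K with 2554 CPM, and miR-142a-5p and both miR-126a arms stay above 0 in every library.

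miR-486a-5p, from the Ank1 locus, did not follow the other erythroid miRNAs. It was the most abundant member, with 22418 reads in T6, 19779 in T10 and 1796 in TAD. The KSR cultures held 25370 reads (T6-12K) and 3988 (T10-12K), and the AlbuMAX I cultures 4800 (T6-12A) and 6438 (T10-12A). In CPM the order was T6-12K with 2554, T6 with 1678, T10 with 1476, TAD with 1103, T10-12A with 762, T10-12K with 564 and T6-12A with 445. The counting intervals of neighbours in this order did not overlap. Thus 3 cultures were the lowest libraries and the remaining culture, T6-12K, was the highest.

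Against the starting testis, the log2 ratio of miR-486a-5p was 0.61 (0.58 to 0.63) in T6-12K but -1.92 (-1.96 to -1.87) in T6-12A. Both 10.5 dpp cultures were lower than T10, with -1.39 (-1.44 to -1.34) for KSR and -0.95 (-1.0 to -0.91) for AlbuMAX I. These 4 directions held under all 6 scalings, although the ratio of T10-12A ranged from -1.62 to -0.19. The reads of miR-451a per read of miR-486a-5p were 0.00535 in T6, 0.00465 in T10 and 0.00334 in TAD, with overlapping intervals. In the cultures this ratio could not be formed, since miR-451a was at 0 beside 3988 to 25370 reads of miR-486a-5p.

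The other arm, miR-486a-3p, had 123 reads in T6, 122 in T10 and 6 in TAD. T6-12K held 80 of its reads, T10-12K 14, and both AlbuMAX I cultures 19 each. It was thus also higher in T6-12K (8.05 CPM) than in the other cultures, which had at most 2.25 CPM. Unlike miR-486a-5p it was not above T6, which had 9.20 CPM. The reads of miR-486a-3p per read of miR-486a-5p were 0.00315 (0.00250 to 0.00393) in T6-12K, against 0.00549 (0.00456 to 0.00655) in T6. The single listed miRNA of the striated muscle list, miR-133a-3p, had 23.3 CPM in T6, 30.4 in T10, 25.9 in T6-12K and 28.2 in TAD. Its level was 6.08 CPM in T10-12K, and 8.62 and 2.60 CPM in the AlbuMAX I cultures T6-12A and T10-12A, so that T6-12K stood above the other cultures for this miRNA too. The other 5 miRNAs of that list, miR-1a-3p and miR-206-3p among them, were not analysed here, and the part of muscle RNA in the level of miR-486a-5p was not tested.

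miR-486b-5p gave almost the same numbers as miR-486a-5p. The ratio of miR-486a-5p to miR-486b-5p reads lay between 0.993 and 1.01 in the 7 libraries, and TAD listed 1796 reads for both. With values this close the reads of these near-identical miRNAs cannot be assigned to one of them, and both rows are read here as a single measurement. Another such pair lies at the miR-126 locus, where Mir126b is annotated on the opposite strand. The Mir126a hairpin is shown with capitals for miR-126a-3p (the second stretch) and for the stretch whose reverse complement is miR-126b-3p (the first stretch). All 23 bases of miR-126b-3p were matched there.
miR-126b-3p: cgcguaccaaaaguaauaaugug
Mir126a: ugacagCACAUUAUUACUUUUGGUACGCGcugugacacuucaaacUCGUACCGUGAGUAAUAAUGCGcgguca
The reads of miR-126b-3p were between 90.5% and 95.0% of those of miR-126a-5p in each of the 7 libraries. Whether reads were counted by strand is not given in the sources used here, so the value of miR-126b-3p is uncertain and may repeat reads of miR-126a-5p.

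The leukocyte members differed from each other in culture. miR-142a-5p had 114 reads in T6, 118 in T10 and 46 in TAD. The KSR cultures held 55 (T6-12K) and 72 (T10-12K), the AlbuMAX I cultures 72 (T6-12A) and 76 (T10-12A). In CPM it lay between 8.53 and 8.81 in the starting testes, between 5.54 and 10.2 in the cultures and at 28.2 in TAD. The cultures overlapped the starting testes on both sides. The log2 ratio to the start was -0.62 (-1.12 to -0.15) for KSR and -0.35 (-0.80 to 0.08) for AlbuMAX I at 6.5 dpp. At 10.5 dpp it was 0.21 (-0.24 to 0.64) for KSR and 0.03 (-0.41 to 0.46) for AlbuMAX I. The interval thus excluded 0 in T6-12K alone, and under the 6 scalings each of the 4 ratios took both signs.

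miR-150-5p had 49 reads in T6, 27 in T10 and 28 in TAD, against 6 in T6-12A and 0 in the other cultures. In CPM it was highest in TAD with 17.2, followed by T6 with 3.67, T10 with 2.02 and T6-12A with 0.556. In deposited values it passed 50 only in TAD (89.36), so it may be listed only through an uncultured library. It was at least 7.29-fold lower in T6-12K than in T6 and at least 2.85-fold and 3.41-fold lower in T10-12K and T10-12A than in T10. In T6-12A the log2 ratio was -2.72 (-4.24 to -1.50). Under 4 of the 6 scalings the bound in T10-12K was past 2-fold, and its value nearest to 0, -0.75 on the log2 scale, came with trimming by M-values.

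Of 10 further leukocyte miRNAs, 3 were listed, and the remaining 7, with miR-142a-3p, miR-155-5p and miR-223-3p among them, were not analysed here. miR-146a-5p, which is induced by inflammatory signals in many cell types, had levels of 24.8 and 47.9 CPM in the starting testes T6 and T10, and from 120 to 478 CPM after culture. miR-342-3p, from an intron of Evl, lay between 44.4 and 129 CPM in the cultures against 54.6 in T6 and 138 in T10. miR-342-5p was at most 16.8 CPM in culture against 17.3 and 49.8 CPM in T6 and T10. The summed level of the 3 was 96.7 CPM in T6, 236 in T10, 217 in TAD and 168 to 602 in the cultures, most of it miR-146a-5p and miR-342-3p. At least 2-fold higher than the start were 2 of the 3 in T6-12A, beside 12.5% of all miRNAs, and 1 of 3 in each other culture. The shares of all there were 10.9% in T6-12K, 8.21% in T10-12K and 10.6% in T10-12A. At least 2-fold lower were 0 of 3 in T6-12A, beside 38.0%, and 1 of 3 in each other culture. The shares of all there were 57.1%, 40.1% and 41.4% in the same order. With 3 miRNAs these counts are no result about the list.

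The endothelial members stayed above 0 in culture and within 2-fold of the starting testis in CPM. miR-126a-5p had 1993 reads in T6, 1980 in T10 and 548 in TAD. It had 1234 (T6-12K) and 716 (T10-12K) in the KSR cultures, and 1792 (T6-12A) and 1564 (T10-12A) in those with AlbuMAX I. Its level was 149 and 148 CPM in T6 and T10, between 101 and 185 CPM in the cultures and 336 CPM in TAD. miR-126a-3p had 541 reads in T6, 444 in T10 and 111 in TAD, against 294 (T6-12K) and 158 (T10-12K) with KSR and 493 (T6-12A) and 543 (T10-12A) with AlbuMAX I. This was 40.5 and 33.1 CPM in T6 and T10, from 22.3 to 64.2 in culture and 68.1 in TAD. Both arms had the same order of libraries in CPM, from TAD through T10-12A, T6-12A, T6, T10 and T6-12K to T10-12K. For the 5p arm the counting intervals of T6 and T10 overlapped, and those of the other neighbours did not. For the 3p arm those of TAD and T10-12A, of T6-12A and T6, and of T10 and T6-12K overlapped. In CPM the cultures with AlbuMAX I stood above the starting testes and those with KSR below them.

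For miR-126a-3p the log2 ratio to the start was -0.45 (-0.66 to -0.24) with KSR and 0.17 (-0.0049 to 0.35) with AlbuMAX I at 6.5 dpp. At 10.5 dpp it was -0.57 (-0.84 to -0.30) with KSR and 0.95 (0.77 to 1.14) with AlbuMAX I. For miR-126a-5p it was -0.26, 0.15, -0.55 and 0.32 in the same order, and no ratio of either arm was past 2-fold in CPM. The direction in T10-12A held for miR-126a-3p under all 6 scalings (0.29 to 1.72). For the other cultures it changed: with median-of-ratios factors or the trimmed mean of M-values, miR-126a-3p in T6-12K reached up to 0.56, and with the latter T10-12K was at 0.19. The scaling called equal depth compares reads without dividing them by library totals. With it T6-12A was at -0.13, and miR-126a-5p in T10-12A at -0.34.

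Set against all listed miRNAs, the members' counts differed between cultures. At least 2-fold lower than the start were 4 of 9 members in T6-12K, where 57.1% of the 329 miRNAs compared were as low. The count was 6 of 9 in T6-12A, against 38.0% of all, and 6 of 9 in T10-12K, against 40.1%. In T10-12A it was 4 of 9, against 41.4%. The shares in T6-12K and T10-12A are near or under those of all miRNAs and are no result about the members. In CPM no member was 2-fold higher in any culture. Of all miRNAs, 10.9% and 12.5% were in the 6.5 dpp cultures with KSR and AlbuMAX I, and 8.21% and 10.6% in the 10.5 dpp ones. Other scalings put members past 2-fold higher, and more of all miRNAs with them. These were both miR-486 rows in T6-12K under 2 of 6 scalings, and in T10-12A miR-126a-3p under 3 and miR-126a-5p under 1. The median log2 ratio of the members was -0.62 in T6-12K and -1.92 in T6-12A, beside -1.21 and -0.63 for all miRNAs. It was -1.40 in T10-12K and -0.96 in T10-12A, beside -0.76 and -0.78. The other scalings move every ratio of a comparison by the same amount, at most 1.01 upwards (the trimmed mean of M-values, T6-12K) and 0.92 downwards (equal depth, T10-12K) among the cultures. The members are not independent of each other, because miR-486a-5p and miR-486b-5p share reads and the miR-144 and miR-451a rows share a transcript.

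**Figure D2:**
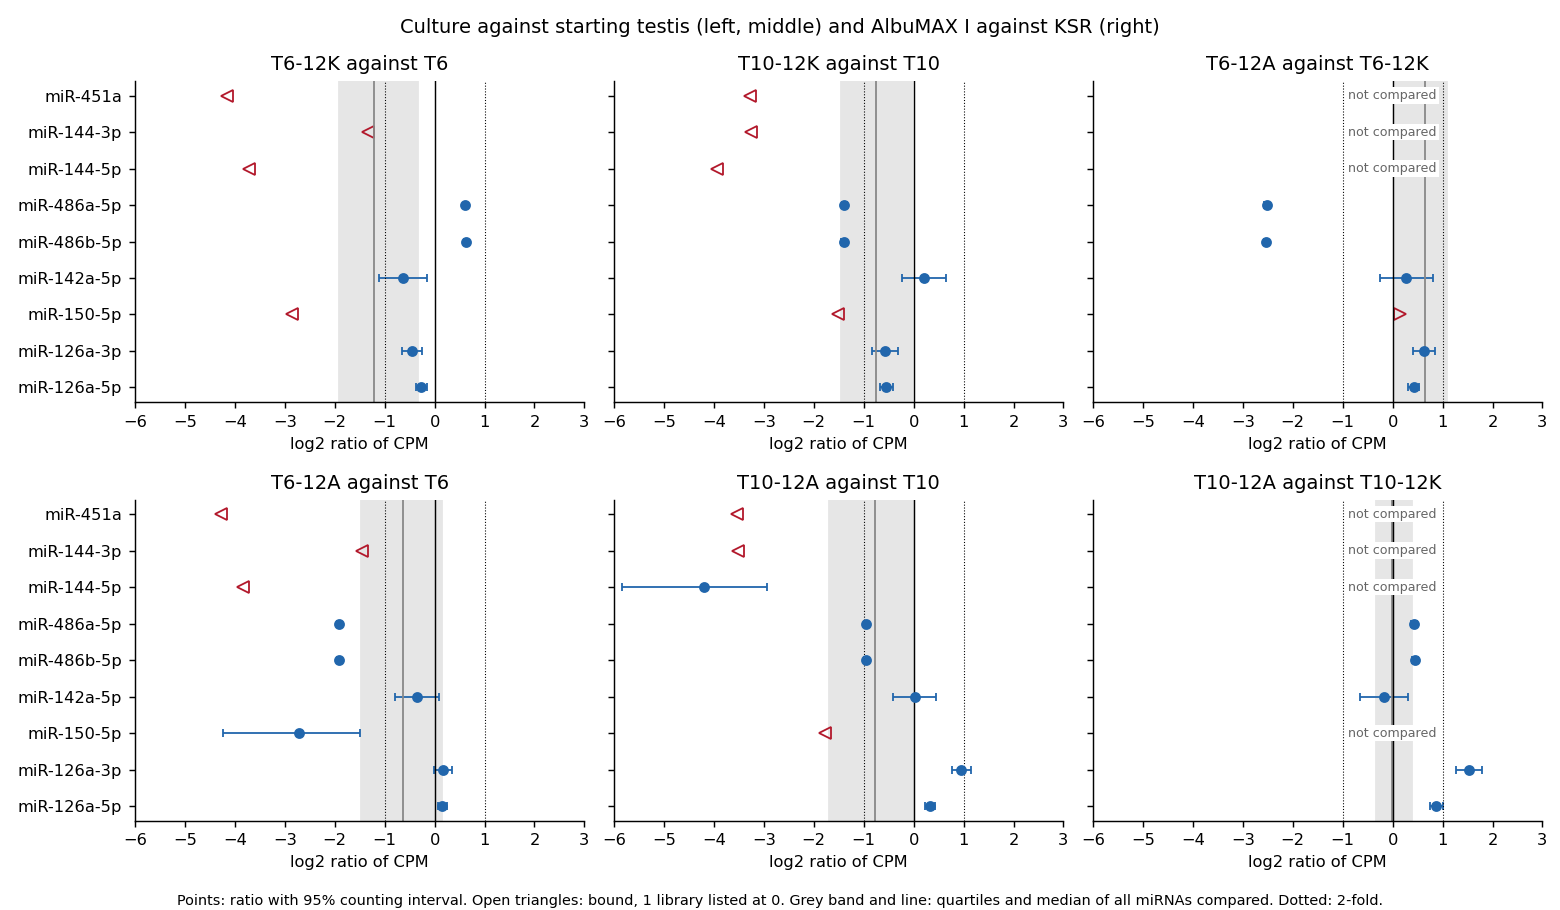
Log2 ratio of CPM of each miRNA in 6 comparisons (panels), with 95% counting intervals, open triangles for bounds where 1 library was listed at 0, the median and quartiles of all miRNAs compared in grey, and dotted lines at 2-fold. miR-451a and miR-144-5p lie left of the grey band in the 4 culture comparisons, whereas miR-142a-5p and both miR-126a arms lie within or to the right of it.

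Between the libraries with AlbuMAX I and KSR, the miR-486 rows at 6.5 dpp and miR-126a-3p at 10.5 dpp stood furthest apart among the members compared. At 6.5 dpp 2 of the 6 members compared, both miR-486 rows, were at least 2-fold lower with AlbuMAX I, against 5.92% of all miRNAs, and 0 of 6 were as much higher, against 27.4%. At 10.5 dpp 0 of 5 were lower and 1 of 5, miR-126a-3p, was higher, where 5.68% of all miRNAs were lower and 5.68% higher. miR-126a-3p was higher with AlbuMAX I at both ages, with 45.7 against 29.6 CPM at 6.5 dpp and 64.2 against 22.3 CPM at 10.5 dpp. The log2 ratios were 0.63 (0.41 to 0.84) and 1.52 (1.27 to 1.79). At 6.5 dpp this value lay near the median of all miRNAs, 0.64, and under median-of-ratios factors it was 0.07. At 10.5 dpp the median of all was -0.02, 8 of the 317 miRNAs compared had a larger ratio, and the scalings ranged from 1.52 to 1.78. miR-126a-5p followed with 0.42 (0.31 to 0.52) and 0.87 (0.74 to 1.00), but the value at 6.5 dpp was -0.14 by median-of-ratios factors and -0.05 by trimmed means of M-values.

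miR-486a-5p went the other way at 6.5 dpp, with 445 CPM with AlbuMAX I against 2554 with KSR, a log2 ratio of -2.52 (-2.57 to -2.48). Of the 321 miRNAs compared, 7 had a smaller ratio, miR-486b-5p among them. At 10.5 dpp it was 762 against 564 CPM, a log2 ratio of 0.43 (0.38 to 0.49). miR-142a-5p differed by 0.27 (-0.26 to 0.80) at 6.5 dpp and by -0.18 (-0.66 to 0.31) at 10.5 dpp, so at this depth differences as far from 0 as 0.80 and -0.66 could not be told from none. miR-150-5p had 6 reads with AlbuMAX I and 0 with KSR at 6.5 dpp. miR-451a and the miR-144 arms were at or below 5 reads in both supplements and were not compared.

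The uncultured testes showed how the members stood at each age. At 10.5 dpp 1 of 9 members was at least 2-fold higher than at 6.5 dpp, against 11.0% of all miRNAs, and 0 were as much lower, against 4.29%. The higher one was miR-144-3p, with 17 and 91 reads and a log2 ratio of 2.42 (1.66 to 3.26), whereas miR-144-5p gave 0.70 (0.31 to 1.10) and miR-451a -0.39 (-0.79 to 0.02). The share of the 5p arm of miR-144 was accordingly 84.0% (75.8 to 89.7) in T6 and 61.4% (55.1 to 67.4) in T10, and 58.3% (32.0 to 80.7) in TAD, where 12 reads were counted for both arms. The ratio of miR-451a to miR-144-5p was 1.35 (1.02 to 1.79) in T6, 0.634 (0.483 to 0.830) in T10 and 0.857 (0.238 to 2.98) in TAD. These ratios within a library do not depend on the scaling.

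In the adult testis the leukocyte and endothelial members had their highest CPM and the erythroid ones did not. miR-142a-5p was 3.31-fold higher in TAD than in T6 and 3.21-fold higher than in T10, and miR-150-5p 4.69-fold and 8.53-fold. The intervals of these log2 ratios were 1.2 to 2.23 and 1.16 to 2.18 for miR-142a-5p, and 1.5 to 2.93 and 2.28 to 3.91 for miR-150-5p. miR-126a-5p was 2.26-fold and 2.28-fold higher, and miR-126a-3p 1.68-fold and 2.06-fold. At least 2-fold higher than T6 were 4 of 9 members, against 26.4% of all miRNAs, and than T10 also 4 of 9, against 17.6%. These were miR-142a-5p, miR-150-5p and miR-126a-5p in both, with miR-144-3p against T6 and miR-126a-3p against T10. miR-150-5p may be listed only through TAD, where alone its deposited value passed the read filter, and this favours a high level there. miR-144-3p had 5 reads in TAD, the smallest number listed, and its log2 ratio to T6 had an interval of -0.52 to 2.77. Both counts thus depend partly on how miRNAs came to be listed and are no result about the members. Under 5 of the 6 scalings TAD stood above T6 and T10 for miR-142a-5p, miR-150-5p and both miR-126a arms. The remaining scaling, equal depth, does not correct for library totals. There TAD, whose miRNA reads are few, was lower than both for miR-142a-5p and the miR-126a arms. For miR-150-5p it was lower than T6 but not than T10.

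At least 2-fold lower than T6 was 1 of 9 members, miR-451a, against 37.9% of all miRNAs, and than T10 2 of 9, both miR-144 arms, against 34.5%. With 5 to 7 reads each, miR-451a and the miR-144 arms were measured imprecisely in TAD. The log2 ratio of miR-451a was -1.29 (-2.76 to -0.12) to T6 and -0.90 (-2.38 to 0.28) to T10, and that of miR-144-3p to T6 was 1.27 (-0.52 to 2.77). miR-486a-5p was at -0.61 (-0.68 to -0.54) and -0.42 (-0.49 to -0.35).

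**Figure D3:**
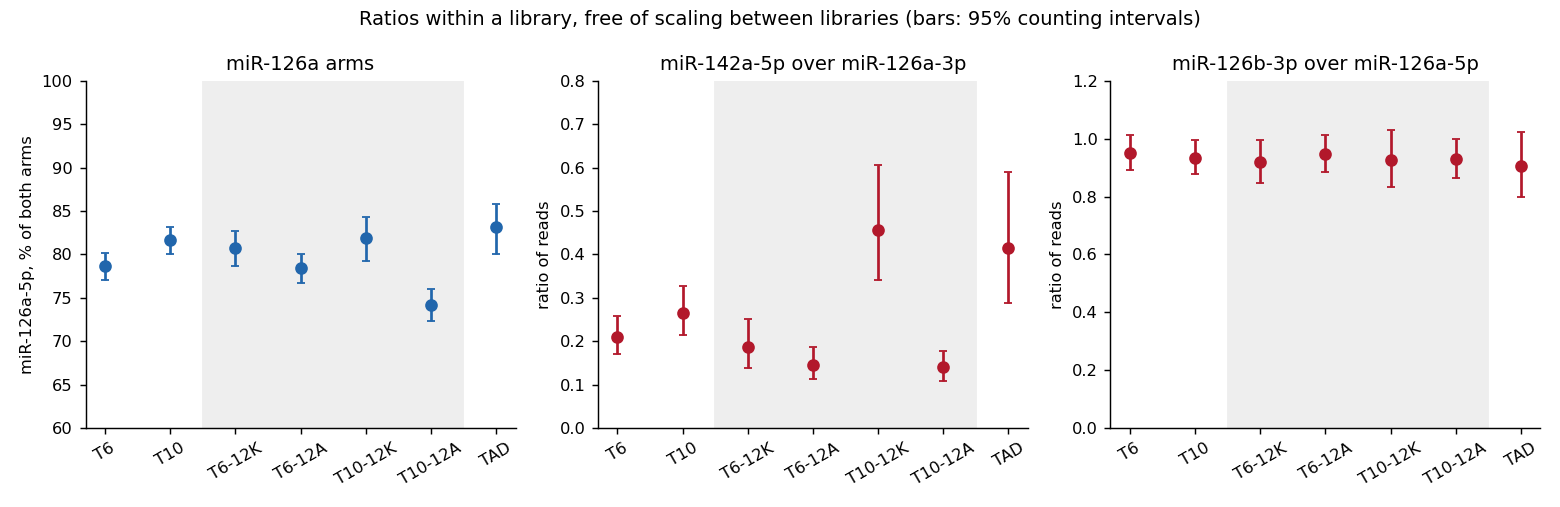
Ratios within each library, which are free of the scaling between libraries, with 95% counting intervals: the share of miR-126a-5p in both arms in percent, the reads of miR-142a-5p per read of miR-126a-3p, and the reads of miR-126b-3p per read of miR-126a-5p. The arm share is lowest in T10-12A with 74.2%, the middle ratio is highest in T10-12K with 0.456 and TAD with 0.414, and the last stays between 0.905 and 0.950.

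Within libraries, miR-126a-5p made up most of the miR-126a reads. Its share was 78.7% in T6, 81.7% in T10 and 83.2% in TAD, 80.8% and 81.9% in the KSR cultures of 6.5 and 10.5 dpp testes, and 78.4% in T6-12A. T10-12A was the lowest with 74.2% (72.3 to 76.1), and its interval lay apart from those of the other 6 libraries. miR-142a-5p had 0.211 reads per read of miR-126a-3p in T6 and 0.266 in T10. The ratio was 0.187 in T6-12K, 0.146 in T6-12A and 0.140 in T10-12A, but 0.456 (0.340 to 0.606) in T10-12K and 0.414 (0.287 to 0.589) in TAD. The interval of T10-12K lay above those of the other 3 cultures and of T6 and T10.

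**Figure D4:**
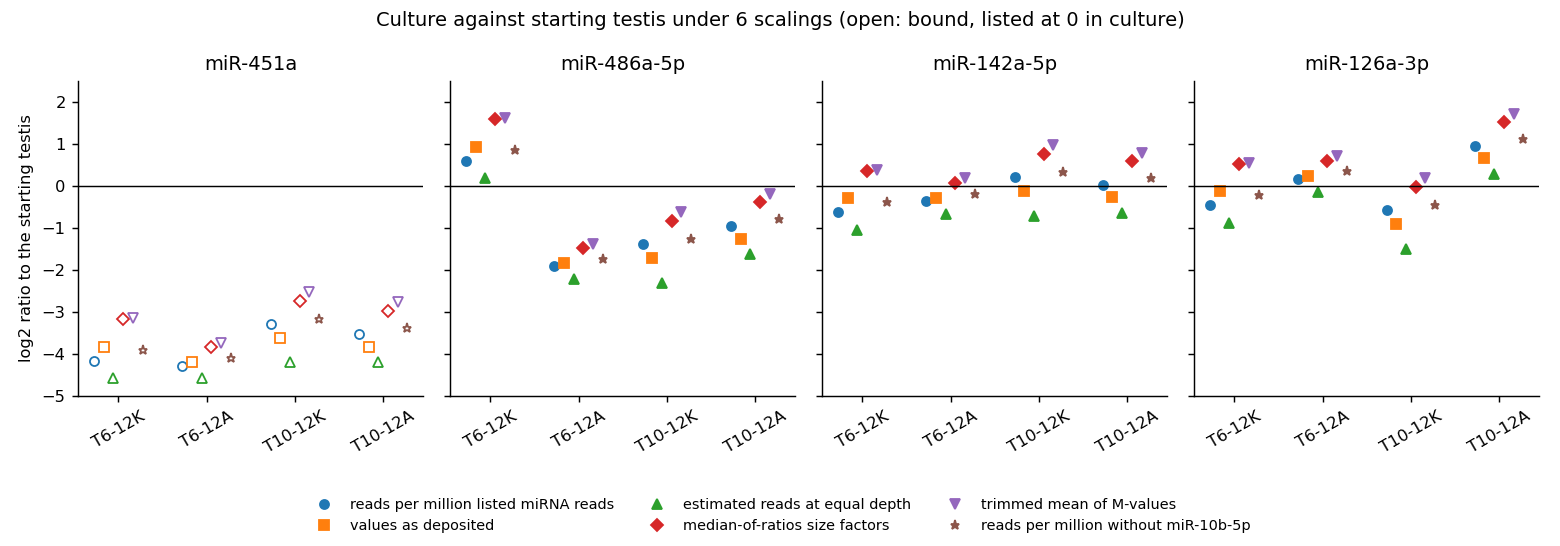
Log2 ratio of miR-451a, miR-486a-5p, miR-142a-5p and miR-126a-3p in each culture to its starting testis under 6 scalings of the libraries, with open symbols for bounds. miR-451a stays below -2.5 in all of them, miR-486a-5p is above 0 in T6-12K and below 0 in the other cultures, and miR-142a-5p takes both signs in every culture.

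Lists of related miRNAs were read beside the members. Of the erythroid relatives, 6 of 8 were listed. At least 2-fold lower than at the start were 4 of these 6 in T6-12K, beside 57.1% of all miRNAs, and 3 of 6 in T6-12A, beside 38.0%. At 10.5 dpp these were 4 of 6 with KSR, beside 40.1%, and 3 of 6 with AlbuMAX I, beside 41.4%. The counts depend on the scaling: by median-of-ratios factors and by trimmed means of M-values 0 of 6 were 2-fold lower in T6-12K, and by the latter 1, 2 and 1 of 6 in T6-12A, T10-12K and T10-12A. The median of the list was below 0 in the 4 cultures under all 6 scalings. That of all miRNAs was too, except by trimmed means of M-values in T10-12K (0.002). In CPM the list had -1.49 in T6-12K and -0.95 in T6-12A, beside -1.21 and -0.63 for all. It had -1.45 in T10-12K and -0.99 in T10-12A, beside -0.76 and -0.78. The summed level of the list was 4617 CPM in T6, 4697 in T10, 5847 in TAD and between 1451 and 2827 in the cultures. miR-16-5p, miR-25-3p and miR-92a-3p, which red cells share with most other cells, lay at 455 to 1089 CPM in the cultures, against 1237 to 2067 CPM in T6 and T10.

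Of the endothelial relatives, 7 of 8 were listed, with medians between 0.55 and 0.91 on the log2 scale in the 4 cultures. At equal depth the medians of the 10.5 dpp cultures were -0.37 with KSR and -0.03 with AlbuMAX I. At least 2-fold higher were 3 of 7 in T6-12K, beside 10.9% of all miRNAs, and 3 of 7 in T6-12A, beside 12.5%. At 10.5 dpp these were 2 of 7 with KSR, beside 8.21%, and 2 of 7 with AlbuMAX I, beside 10.6%. The scalings gave 2 to 5 of 7 in each culture. With 7 miRNAs these counts are no result about the list or about endothelial cells. The summed level was 1300 CPM in T6, 922 in T10, 761 in TAD and between 933 and 1213 in the cultures. miR-126b-3p, which may repeat reads of miR-126a-5p, had 142 and 138 CPM in T6 and T10 and between 93.8 and 172 CPM in the cultures. miR-222-3p, which is also made by many dividing cells, had 50.4 and 46.4 CPM in T6 and T10 and between 119 and 226 CPM in the cultures. miR-130a-3p, in contrast, was lower in each culture than at its start, at 360 to 645 CPM against 986 in T6 and 547 in T10, although under trimmed means of M-values both 10.5 dpp cultures (and T10-12A by median-of-ratios factors too) stood above T10.

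The smooth muscle and pericyte list, of cells in the vessel and tubule walls, had 4 of 4 miRNAs listed, which did not go one way. Its median log2 ratio was 0.04 with KSR and -0.48 with AlbuMAX I at 6.5 dpp, -0.51 and -0.62 at 10.5 dpp, and each of the 4 took both signs under the scalings. miR-143-3p, by far the most abundant, lay between 156675 and 212659 CPM in the cultures and at 103729 and 145909 in T6 and T10. miR-145a-5p was lower in the cultures, with 37.6 to 61.2 CPM against 106 in T6 and 91.0 in T10, although T6-12K stood above T6 by median-of-ratios factors and trimmed means of M-values. miR-145a-3p lay between 159 and 202 CPM in the cultures, against 166 in T6 and 243 in T10.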

How the data were processed

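Small RNA of 7 testis libraries was sequenced. According to the study's methods, the authors trimmed adaptors, checked reads with FastQC, and aligned them with Bowtie to mm10 and then to miRBase, piRBase and Ensembl non-coding RNAs. The submitters' processing notes also list HTSeq and DESeq, without a role. The deposited signal per mature miRNA and library is reads divided by 1 factor per library, and the method behind the factor is not given in the sources used here. The design had assumed reads. They were estimated from the steps between low values, taking the widest step that turns them into whole reads as the worth of 1 read, and 100% of values below 10000 reads came out whole (within 0.05). In simulated libraries all such reads were recovered. The single-library files repeated the table of the series.

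Levels are CPM, reads per 1000000 reads on the 331 listed miRNAs. A miRNA at 0 was set to 5 reads for ratios, and pairs with at most 5 reads in both libraries were not compared. Intervals are exact conditional binomial for ratios and Wilson for shares, at 95%, for counting error only. No count model was fitted, since each condition has 1 library; "called" means past 2-fold. Alternative scalings were the deposited values, equal depth, median-of-ratios factors, trimmed means of M-values (trimming 30% by M, 5% by A) and CPM without miR-10b-5p. Equal depth takes the estimated reads as they are, without division by library totals. Other alternatives were a pseudocount of 1, a minimum of 50 reads, a 3-fold threshold, and leaving out miR-486b-5p. The named miRNAs are the 9 members, up to 3 of each related list, those with the highest mean CPM, the 3 nearest profiles of 3 members, and, picked with their values in view, those at 0 in culture, miR-486a-3p and miR-126b-3p. The members and lists were chosen with earlier results of these data known. Loci are from GENCODE M21 and sequences from RefSeq GRCm38.p6. Software was scipy 1.17.1, statsmodels 0.14.6, matplotlib 3.10.9, pandas 2.3.3 and numpy 2.4.6 under Python 3.11.15.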

Additional observations from a re-analysis of the deposited data

Results flagged for a closer look

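The AlbuMAX I to KSR ratio of miR-486a-5p was below 1 for 6.5 dpp testes and above 1 for 10.5 dpp testes, both beyond counting error. On the log2 scale the ratio at 6.5 dpp minus that at 10.5 dpp was -2.96 (from -3.03 to -2.88), and -2.98 for miR-486b-5p, which stands for the same reads. The difference was not tested, since each age and supplement had 1 library. Of the 315 miRNAs compared at both ages, 151 had opposite signs. As large a difference between the ages was found for 5, miR-486a-5p itself and miR-486b-5p included. T6-12K, the library in which miR-486a-5p was high, also held more miR-486a-3p and miR-133a-3p than the other cultures. For miR-486a-3p it was not above T6, with 8.05 against 9.20 CPM.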

How the results depend on the processing

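No paired analysis was possible because each condition has 1 library and the labels carry no replicate numbers. The scalings shifted the median of all miRNAs, for T6-12K against T6 from -1.64 at equal depth to -0.20 with the trimmed mean of M-values (TMM), beside -1.21 in CPM. The number of members at least 2-fold lower became 2 in T6-12K against T6 with a minimum of 50 reads, and 3 in T10-12K against T10 with median-of-ratios factors, TMM or a 3-fold threshold. For TAD against T6 it became 4 with the deposited values, 8 at equal depth and 0 at 3-fold. For TAD against T10 it became 5, 8 and 0 in these settings, and 1 with median-of-ratios factors, TMM or a pseudocount of 1. Members past 2-fold numbered 1 in T6-12A against T6-12K without miR-486b-5p, 2 at equal depth and 0 at 3-fold in T10-12A against T10-12K, and 2 with TMM in T10 against T6. Equal depth leaves library totals uncorrected, and TAD has the fewest reads. There the log2 ratio of TAD to T6 reversed for miR-144-3p (-1.77), miR-142a-5p (-1.31), miR-150-5p (-0.81) and miR-126a-5p (-1.86). That of miR-126a-3p, which was within 2-fold, was also below 0 (-2.29). The ratio to T10 reversed for miR-142a-5p (-1.36), miR-126a-3p (-2.0) and miR-126a-5p (-1.85).

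The AlbuMAX I to KSR ratio at 6.5 dpp minus that at 10.5 dpp kept its sign for both miR-486 rows and both miR-126a arms. For miR-486a-5p it was -3.24 with the deposited values, -3.09 at equal depth, -3.53 with median-of-ratios factors, -3.43 with TMM and -3.08 without miR-10b-5p. For miR-486b-5p it was -3.27, -3.12, -3.56, -3.46 and -3.10 in this order. For miR-126a-3p it was -1.47 with median-of-ratios factors and -1.37 with TMM, against -0.90 in CPM. For miR-126a-5p it was -0.74 with the deposited values, -1.03 with median-of-ratios factors and -0.93 with TMM, against -0.45. Without the condition on TAD, 6 miRNAs in place of 2 were listed at 0 in all cultures and above 0 in T6 and T10; this count was chosen after seeing the data. Of 444 recomputed log2 ratios of members, 287 stayed within the counting interval of the CPM value and 7 changed sign after being past 2-fold. The cause of these shifts, beyond the read totals, was not tested.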

Other observations

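The miRNAs whose centred log2 CPM profiles over the 7 libraries lay nearest to those of 3 members were searched among 225 others with a mean of at least 10 CPM. For miR-451a these were miR-423-5p, miR-25-5p and miR-3470a, with root mean square differences of 0.57, 0.57 and 0.79 beside a median of 1.60 over all candidates. miR-423-5p had 1360 and 892 CPM in T6 and T10, between 116 and 217 CPM in the cultures and 1057 CPM in TAD. The members' own difference between miR-451a and miR-144-5p was 0.30, and that between miR-451a and miR-486a-5p was 1.57. In the 4 cultures miR-451a and miR-144-5p both stood at 5 reads, listed or set in place of 0. In TAD they had 6 and 7 reads. Their small difference thus partly follows from that setting. For miR-126a-3p the nearest were miR-126b-3p (0.23), which may repeat reads of miR-126a-5p, miR-92b-3p (0.37) and miR-328-3p (0.40), beside a median of 0.89. For miR-142a-5p they were miR-195a-5p (0.26), miR-19b-3p (0.27) and miR-192-5p (0.29), beside 0.91. Each profile rests on 7 libraries of different depth, and the values at 0 were set to 5 reads.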
